A study of Rattus norvegicus with 9 samples.

Results

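Messenger RNA of the rat brain cortex was compared between a simulated altitude of 7 km and one of 3 km. The comparison holds the 3 arrays titled 7 km and the 3 titled 3 km, 6 of the 9 arrays of the series, and the 3 arrays of rats kept at sea level did not enter it. All 6 arrays came from rats (Rattus norvegicus) that the labels call hypoxic, so neither group is an unexposed control. The labels give the tissue and the altitude, and strain, sex, age, length of exposure and the number of animals behind an array are not given. Nothing in the labels says that the replicates were separate animals, so the p-values measure only the spread between these arrays, which may be technical.

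Oxygen falls with altitude, and cells respond in part through the hypoxia-inducible factors (HIFs). These transcription factors are degraded while oxygen is plentiful, and when it is scarce they bind a short DNA element and raise genes for glycolysis, vessel growth and mitochondrial turnover. In the cortex, neurons depend on mitochondrial respiration for their energy, and oligodendrocytes, which wrap axons in myelin, are known to be sensitive to low oxygen. The series names Tfpi2, a secreted inhibitor of serine proteases, in its title.

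Each array was a single-colour Illumina bead array, on which biotin-labelled complementary RNA binds gene-specific probes and its brightness is read. Of 22523 probes, between 5881 and 6173 were above background on the 7 km arrays and between 6109 and 6434 on the 3 km arrays, where above background means a deposited detection p-value under 0.05. A probe was tested when it was above background on 3 or more of the 6 arrays, which 6252 probes were, covering 4572 named genes. Rank correlations between pairs of the 6 arrays lay between 0.945 and 0.978. Levels below are log2 of background-corrected, quantile-normalised signal, and differences are 7 km minus 3 km on that scale with the standard error of the limma fit (n = 3 arrays each). The background correction compressed dim probes, since very bright values entered the inferred negative controls, with a standard deviation of 402 to 570 intensity units against a median absolute deviation of 22.0 to 26.9. A second background estimate that resists such values, chosen after seeing the data and called the resistant background here, is quoted where it moves a gene's difference by more than 1.5 times.

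No probe passed the test. In limma's moderated test with Benjamini-Hochberg adjustment over all 6252 probes, 0 probes (0%) had an adjusted p under 0.05, and the smallest adjusted p was 0.424. At an unadjusted p under 0.05, 189 probes (3.02%) lay higher and 282 (4.51%) lower at 7 km. With the arrays scaled to a common median in place of quantile normalisation, that split became 13 higher and 1496 lower, and the median over all probes moved to -0.07. List medians and single-gene differences quoted below under median scaling carry this general shift, whose size differed between genes. Of the 4572 named genes, 255 (5.58%) had all 7 km arrays above all 3 km arrays, and 372 (8.14%) had all 7 km arrays below all 3 km arrays. Of all named genes 48% lay higher and 52% lower. Over all probes the median size of a difference was 0.03. The values that follow therefore describe these 6 arrays, and no difference passed the test in this fit. An exact permutation test of 3 arrays against 3 cannot go below p = 0.1.

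The oligodendrocyte and myelin genes had the highest share of members without overlap among the lists with 10 or more tested genes. Of 24 tested, 22 lay lower at 7 km and 14 had all 7 km arrays below all 3 km arrays, against 8.14% of all named genes. The median difference was -0.15, and 12 of the 24 had an unadjusted p under 0.05 and lay lower, against 4.51% of all probes. The 4 members with the smallest p were Ppp1r14a (-0.40, and -0.66 with the resistant background), the small heat shock protein Cryab (-0.55, and -0.85 with the resistant background), the protease Klk6 (-0.19, and -0.77 with the resistant background) and Plekhb1 (-0.83). Ppp1r14a, which inhibits a myosin phosphatase, had levels of 7.95, 8.17 and 8.04 at 7 km and 8.47, 8.52 and 8.39 at 3 km. Cryab had 8.02, 8.06 and 7.95 at 7 km and 8.42, 8.77 and 8.48 at 3 km. In each of the 4 genes the groups did not overlap.

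Mog, Cnp, Mal and Mobp were picked out after their values were seen, as myelin members with large differences. Myelin oligodendrocyte glycoprotein, Mog, a surface protein of the outermost myelin layer, had levels of 9.00, 9.57 and 8.95 at 7 km and 10.21, 10.67 and 9.80 at 3 km. Its groups did not overlap, and the 7 km level was 0.482 of the 3 km level (difference -1.05 ± 0.282, and -0.64 with the resistant background, adjusted p = 0.528, 95% interval -1.77 to -0.34). Cnp, an enzyme of non-compact myelin, had levels of 9.70, 10.80 and 10.27 at 7 km and 11.29, 11.68 and 10.91 at 3 km, again without overlap (-1.04 ± 0.341, and -0.64 with the resistant background, adjusted p = 0.62). Mal, a lipid-raft protein of myelin, had 9.68, 10.78 and 10.03 at 7 km and 10.82, 11.21 and 11.18 at 3 km. Mobp, a protein of compact myelin, had 8.29, 8.96 and 8.38 at 7 km and 9.28, 9.66 and 9.12 at 3 km. In all 4 genes 7 km replicate 2 was the highest of its group and the 7 km arrays lay below those of 3 km.

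Not every member had groups without overlap, and 2 of the 24 lay higher. The 2 were Ndrg1, given below, and Enpp2 (0.05, and 0.02 with the resistant background), named after its value was seen. Mbp, the myelin basic protein, also named after its values were seen, had 8.03, 8.12 and 8.04 at 7 km and 8.08, 8.05 and 8.15 at 3 km, and its groups overlapped (-0.03, and -0.06 with the resistant background). The Mbp probe was dim, with a mean over the 6 arrays of 8.08, against 9.70 for Mog and 10.77 for Cnp. Klk6, whose groups did not overlap, was dimmer still at 7.84. Olig1, a transcription factor of the lineage, was at -0.53 ± 0.212 (-0.32 with the resistant background), with groups that overlapped. Ndrg1, which is also a HIF target and was named after its value was seen, was at 0.09 (0.21 with the resistant background) and turned to -0.02 under median scaling. Galc, Mag, Olig2, Opalin and Pllp were above background on 0 of the 6 arrays.

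**Figure D1:**
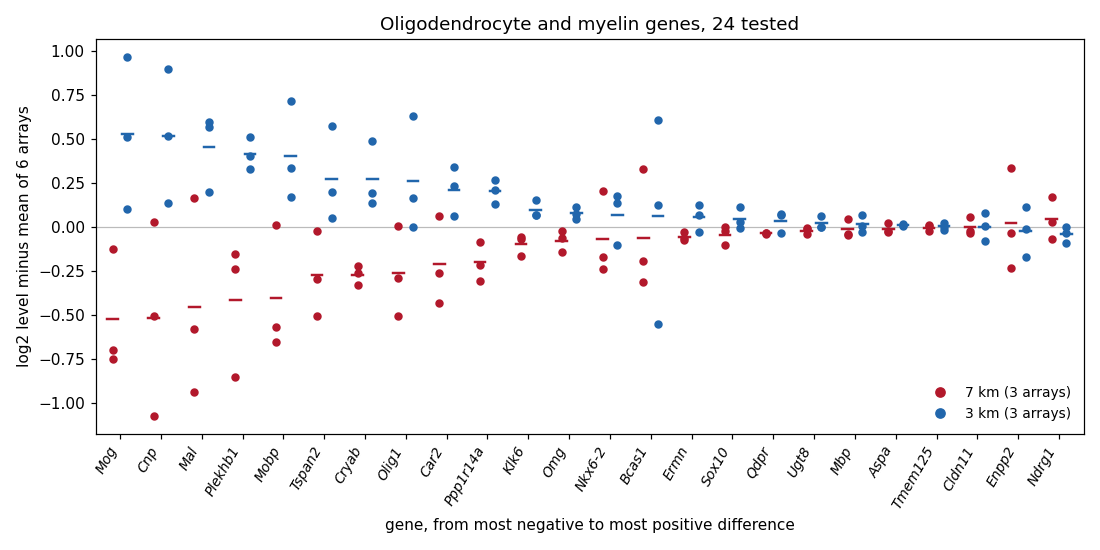
Levels of the 24 tested oligodendrocyte and myelin genes (x axis) on each array, as log2 level minus the gene's mean over the 6 arrays (y axis). Points are arrays, 7 km left of 3 km for each gene, and short lines are means of 3. The groups stand furthest apart at the left, from Mog with a difference of -1.05, and they overlap in Mbp with -0.03.

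Averaged over the 24 members, the log2 level relative to the mean of the 6 arrays was -0.32, 0.02 and -0.20 at 7 km and 0.16, 0.25 and 0.09 at 3 km, so every 7 km array lay below every 3 km array. The median was -0.45 under median scaling, which moved probes lower in general, and -0.31 with the resistant background. Leaving out 1 array at a time gave medians between -0.26 and -0.11, and the most negative came without 7 km replicate 2. In whole tissue, fewer oligodendrocytes and less RNA in each cannot be told apart, and the share of white matter in each piece is not given. Of 5 tested genes of oligodendrocyte precursors, 3 lay lower, against 52% of all named genes (median -0.02, and -0.20 with the resistant background). Of the 5, 0 had groups without overlap, against 8.14% below and 5.58% above among all named genes. The lower Olig1 and Sox10 also belong to the 24 myelin genes, so this count is not separate from theirs. Vcan, also lower, was above background on 1 array at 7 km and 3 at 3 km. Pdgfra and Cspg4 lay higher.

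Markers of other cells and regions were set beside the myelin genes. Of 16 tested genes of the striatum, the deep region next to the cortex, 15 lay lower at 7 km, against 52% of all named genes. Of the 16, 3 had groups below without overlap, against 8.14% of all named genes (median -0.28, and -0.95 with the resistant background). The mean relative level of the 16 was -0.56, -0.50 and 0.24 at 7 km and 0.09, 0.27 and 0.46 at 3 km, so 7 km replicate 3 lay among the 3 km arrays. Rgs9, a regulator of G protein signalling in striatal neurons, had 8.06, 8.14 and 10.55 at 7 km and 11.01, 10.98 and 11.32 at 3 km (-2.18 ± 0.726, adjusted p = 0.626). Penk, the enkephalin precursor, had 7.94, 7.97 and 10.66 at 7 km and 9.17, 10.49 and 11.33 at 3 km, and its groups overlapped. In both genes 7 km replicates 1 and 2 were below the other 4 arrays. The other striatal members without overlap were the phosphodiesterase Pde10a (-0.33, and -1.02 with the resistant background) and the sodium channel subunit Scn4b (-0.60, and -1.56 with the resistant background). Scn4b was above background on 2 arrays at 7 km and 3 at 3 km. Tac1 and Pde1b, both among the lower members, were above background on 1 array at 7 km and 3 at 3 km. Without 7 km replicate 3 the striatal median was -0.56, and without 3 km replicate 2 it was -0.44. The part of striatal tissue or of white matter in the other results was not tested.

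Excitatory cortical markers were read next, and the tissue label was not tested with them. Nrgn, a calmodulin-binding protein of excitatory neurons, had 12.99, 13.33 and 13.46 at 7 km and 13.36, 13.35 and 13.48 at 3 km. It was the 1 tested marker that lay lower at 7 km (-0.14). Slc17a7, the marker with the smallest p, had 7.95, 7.79 and 7.75 at 7 km and 7.79, 7.73 and 7.69 at 3 km (0.09, and 0.41 with the resistant background). Its groups overlapped, near the lowest level that this correction gave, 7.46. Of 14 such markers on the array 7 were tested, and 6 of these lay higher at 7 km (median 0.07, and -0.07 under median scaling). Leaving out 7 km replicate 1, 7 km replicate 2 or 3 km replicate 1 gave medians of 0.005, 0.0207 and 0.004. The excitatory markers Neurod2, Rorb, Etv1 and Rasgrf2 were above background on 0 of the 6 arrays. Also untested, Camk2a was above background on 1 array at each altitude. Neurod1 was so on 2 arrays at 7 km and Neurod6 on 1, and both on 0 at 3 km. Ppp1r1b, a striatal marker that some cortical neurons also express, named after its values were seen, had 11.27, 11.71 and 12.95 at 7 km and 12.78, 13.04 and 13.25 at 3 km. Of 16 astrocyte genes, 10 lay higher and 1 had groups above without overlap, near the 5.58% of all named genes (median 0.11, and -0.06 under median scaling). The median was 0.02 without 7 km replicate 3 and 0.06 without 3 km replicate 2. The member without overlap was Mlc1, a membrane protein of astrocyte endfeet (0.25, and 0.84 with the resistant background). Gfap, the astrocyte intermediate filament, had 12.42, 11.92 and 12.16 at 7 km and 11.55, 11.998 and 11.78 at 3 km, and its groups overlapped. Red blood cell genes were highest on 7 km replicate 2, with a mean relative level of 0.51, and genes of meninges and fibroblasts on 7 km replicate 3, with 0.51. Of 9 microglial genes 7 lay lower, against 52% of all named genes, and 1 had groups below without overlap, against 8.14%. This was C1qa, above background on 0 arrays at 7 km and 3 at 3 km. It was tested only through the group where it was higher, so its direction adds nothing to the count. The median of the 9 microglial genes was -0.02, between -0.0283 and -0.0056 with 1 array left out, nearest to 0 without 3 km replicate 2.

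**Figure D2:**
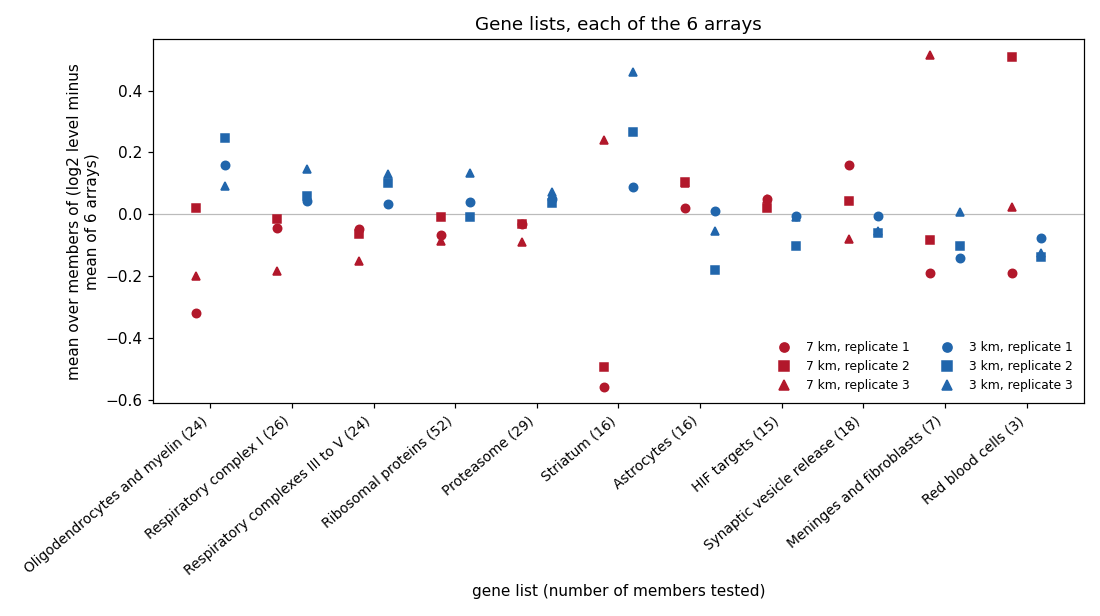
Mean over the tested members of 11 gene lists (x axis, with the number of members) of the log2 level minus the gene's mean over the 6 arrays (y axis). Each symbol is 1 array, 7 km left of 3 km. The 7 km arrays lie below the 3 km arrays in the myelin list, in both respiratory lists and in the proteasome list, and 7 km replicate 3 lies apart from replicates 1 and 2 in the striatal list.

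Genes of mitochondrial respiration lay lower at 7 km as a group. Of 26 tested genes of complex I, where electrons from NADH enter the respiratory chain, 24 lay lower, against 52% of all named genes, and 6 had groups below without overlap, against 8.14% (median -0.14). Of 24 tested genes of complexes III to V, which pass the electrons to oxygen and make ATP, 23 lay lower and 5 had groups below without overlap (median -0.18), against the same 52% and 8.14%. One of the 24, Cox6c, was tested only through its 3 km arrays, and its groups overlapped. Ndufs5, an accessory subunit of complex I, had 9.12, 9.01 and 9.00 at 7 km and 9.51, 9.43 and 9.85 at 3 km (-0.56 ± 0.117, and -0.36 with the resistant background, adjusted p = 0.474). Ndufa11, another accessory subunit, had 10.10, 10.20 and 9.97 at 7 km and 10.40, 10.54 and 10.53 at 3 km (-0.40 ± 0.0726, and -0.23 with the resistant background). Both sets stood apart without overlap, and the complex I genes Ndufs8 (-0.15) and Ndufa12 (-0.37, and -0.21 with the resistant background) did so too.

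Atp5f1b, the catalytic beta subunit of ATP synthase, had 12.54, 12.44 and 12.35 at 7 km and 12.71, 12.69 and 12.92 at 3 km (-0.33 ± 0.0824, adjusted p = 0.492). Cox6a1, a subunit of cytochrome c oxidase, was at -0.25, Uqcrh of complex III at -0.18 and Atp5mg of ATP synthase at -0.21 (-0.14 with the resistant background), each without overlap. Leaving out each array in turn, the medians stayed between -0.17 and -0.08 for complex I and between -0.19 and -0.12 for complexes III to V, and the value nearest to 0 came without 7 km replicate 3 in both. Under median scaling, which moved probes lower in general, they were -0.48 and -0.40. Upstream of the chain, 16 of 23 genes of pyruvate dehydrogenase and the TCA cycle lay lower, 3 with groups below without overlap and 1 above, against 8.14% and 5.58% of all named genes, so these counts are near the background. Idh3g, a subunit of isocitrate dehydrogenase, had 8.72, 8.62 and 8.68 at 7 km and 8.80, 8.89 and 8.86 at 3 km (-0.18 ± 0.0364). Sdhb, the iron-sulphur subunit of succinate dehydrogenase, was at -0.15 ± 0.0457. In both genes the 7 km arrays lay wholly below.

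Of 52 tested ribosomal protein genes, 40 lay lower, 10 had groups below without overlap and 2 above, against 52% lower, 8.14% below and 5.58% above among all named genes (median -0.09). Rpl29 had 12.33, 12.59 and 12.56 at 7 km and 12.92, 12.79 and 12.84 at 3 km, and Rpl35a (-0.58) and Rpl39 (-0.34) were also apart. Of 29 proteasome genes, 22 lay lower and 4 had groups below without overlap, against 8.14% of all named genes (median -0.10), among them the core subunit Psmb3 (-0.50, and -0.29 with the resistant background) and the regulatory subunit Psmd2 (-0.13, and -0.40 with the resistant background). Under median scaling, which moved probes lower in general, the medians were -0.32 for ribosomal proteins and -0.36 for the proteasome. Without 7 km replicate 3 they were -0.06 and -0.06. Of 36 tested autophagy and lysosome genes, 21 lay higher and 15 lower (median 0.02, and -0.17 under median scaling). Without overlap, 4 were above and 5 below, against 5.58% and 8.14% of all named genes.

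**Figure D3:**
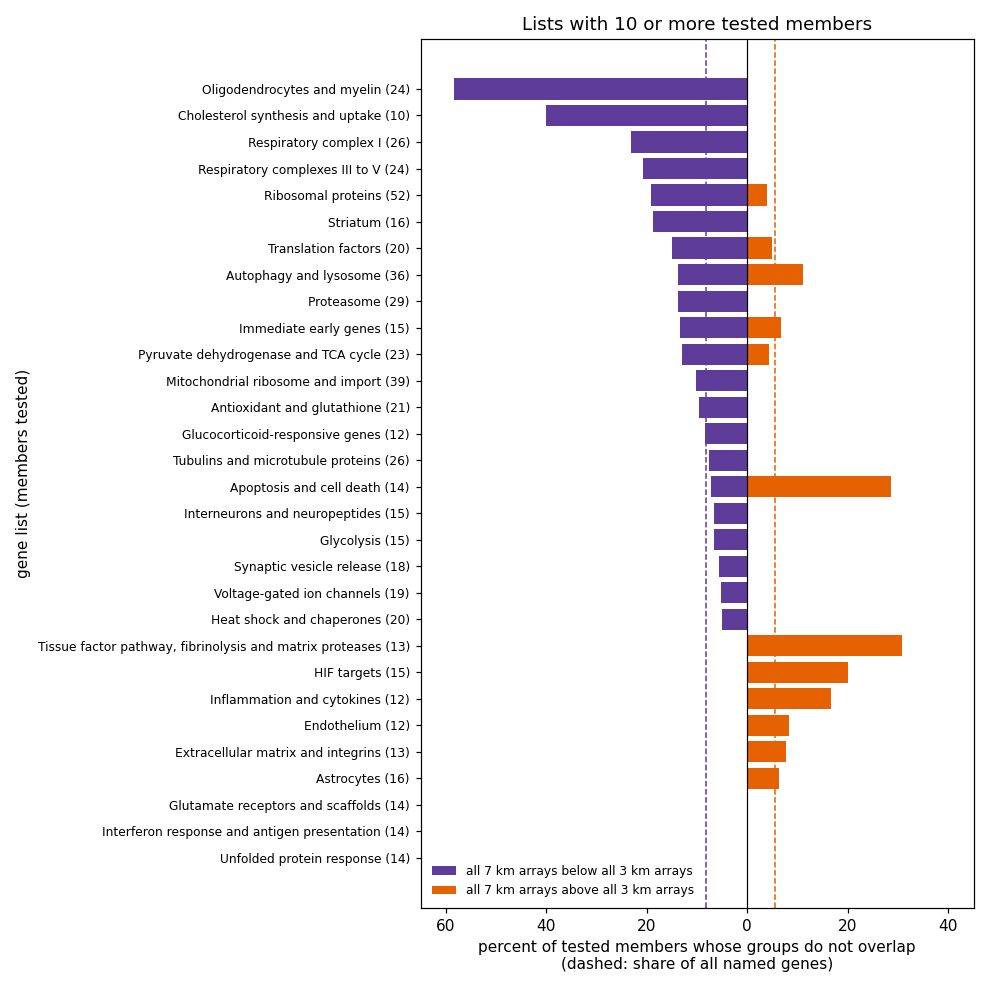
Percent of tested members (x axis) of each list with 10 or more tested genes (y axis, with their number) whose 3 arrays at 7 km lay all below (left of 0) or all above (right of 0) the 3 arrays at 3 km. Dashed lines mark the share among all named genes, 8.14% below and 5.58% above. The myelin list reaches 14 of 24 on the left, and the list of tissue factor and protease genes 4 of 13 on the right.

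Many HIF targets were below background on these arrays. Of 40 listed, 32 had a probe and 15 were tested. Of these 11 lay higher at 7 km, 3 had all 7 km arrays above all 3 km arrays and 0 had them below, against 5.58% above among all named genes. The median was 0.04, turned to -0.04 under median scaling and was 0.14 with the resistant background and 0.06 without 3 km replicate 1. Ak4, a mitochondrial adenylate kinase, had 8.55, 8.45 and 8.42 at 7 km and 8.27, 7.86 and 8.14 at 3 km (0.38 ± 0.114, and 0.65 with the resistant background, adjusted p = 0.589). Stc1, the secreted glycoprotein stanniocalcin 1, had 7.95, 7.86 and 7.96 at 7 km and 7.85, 7.77 and 7.75 at 3 km (0.13 ± 0.0428, and 0.49 with the resistant background). P4ha1, which hydroxylates prolines of collagen, had 8.00, 7.86 and 7.89 at 7 km and 7.81, 7.84 and 7.82 at 3 km (0.09 ± 0.0405, and 0.30 with the resistant background), and it was at -0.01 under median scaling. In all 3 genes the groups did not overlap, by a narrow gap in Stc1 and P4ha1.

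The promoters of Ak4 and P4ha1 are shown because these were the HIF targets without overlap that the RefSeq promoter table held (GRCr8, 300 bases that end 50 bases after the gene start). Capitals mark the core of the hypoxia response element, ACGTG or GCGTG on either strand.
Ak4, chr5:121154886-121155185, plus strand: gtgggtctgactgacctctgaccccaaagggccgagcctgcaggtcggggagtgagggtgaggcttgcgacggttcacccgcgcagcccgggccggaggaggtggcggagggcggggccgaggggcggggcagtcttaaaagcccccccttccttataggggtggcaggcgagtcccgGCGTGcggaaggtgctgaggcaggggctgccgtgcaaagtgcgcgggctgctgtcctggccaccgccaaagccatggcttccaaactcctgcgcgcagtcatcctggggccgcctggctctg
P4ha1, chr20:27844796-27845095, plus strand: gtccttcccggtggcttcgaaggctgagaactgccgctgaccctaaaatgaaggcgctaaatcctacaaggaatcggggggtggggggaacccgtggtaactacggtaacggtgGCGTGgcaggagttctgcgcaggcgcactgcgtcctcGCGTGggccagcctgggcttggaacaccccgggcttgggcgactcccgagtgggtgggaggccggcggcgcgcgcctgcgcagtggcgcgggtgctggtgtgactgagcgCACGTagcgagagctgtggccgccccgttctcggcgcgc
The core matched 1 time in Ak4 and 3 times in P4ha1. It was found in 9 of the 12 tested HIF targets with a promoter in the table, and in 41.6% of all 33469 promoters. A match describes these letters and does not show a bound site.

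For the myelin genes the promoter of Cnp is shown, with capitals on the SOX core (ACAAAG and also ACAATG, either of them also with T in place of the first A, on either strand), the kind of element that Sox10, a regulator of myelin genes, recognises.
Cnp, chr10:86011254-86011553, plus strand: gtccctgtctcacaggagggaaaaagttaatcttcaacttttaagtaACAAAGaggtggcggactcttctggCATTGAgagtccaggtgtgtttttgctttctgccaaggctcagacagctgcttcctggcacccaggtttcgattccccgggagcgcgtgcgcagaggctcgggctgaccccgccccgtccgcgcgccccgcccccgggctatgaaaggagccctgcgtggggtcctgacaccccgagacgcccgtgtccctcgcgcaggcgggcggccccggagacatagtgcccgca
It held 2 matches. The core was found in 6 of the 15 tested myelin genes with a promoter in the table and in 44.9% of all promoters.

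Hif1a, the oxygen-labile subunit of HIF-1, was above background on 2 of 3 arrays at 7 km and 3 of 3 at 3 km. Its levels were 7.65, 7.59 and 7.66 at 7 km and 7.61, 7.64 and 7.67 at 3 km, and they overlapped. Vegfa, the main vessel growth factor, had 7.66, 7.67 and 7.63 at 7 km and 7.62, 7.61 and 7.64 at 3 km and overlapped as well, close to the lowest level that this correction gave, 7.46. Epas1 (HIF-2 alpha), Slc2a1 (the glucose transporter of brain endothelium) and Hmox1 (the inducible haem oxygenase) were above background on 0 of the 6 arrays. Of 15 glycolysis genes, 10 lay lower and 1 had groups below without overlap, no more than the 8.14% of all named genes. This was Pfkp, a phosphofructokinase, with 10.90, 10.84 and 10.85 at 7 km and 11.01, 10.95 and 11.04 at 3 km (-0.14 ± 0.0304, and -0.09 with the resistant background). Slc16a3, a lactate exporter and HIF target outside that list, had its 7 km arrays above (0.05, and 0.56 with the resistant background) and was above background on 3 arrays at 7 km and 1 at 3 km.

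Tissue factor starts blood clotting, and Tfpi and Tfpi2 are related protease inhibitors of that system. Of 13 tested genes of this pathway, of fibrinolysis and of matrix proteases, 11 lay higher at 7 km and 4 had groups above without overlap, against 5.58% of all named genes. Their median was 0.03, became -0.02 under median scaling and was 0.01 without 3 km replicate 3. F3, tissue factor itself, had 7.77, 7.85 and 7.78 at 7 km and 7.71, 7.65 and 7.74 at 3 km (0.10 ± 0.0349, and 0.53 with the resistant background, adjusted p = 0.655). Plat, the tissue plasminogen activator, was at 0.12 (0.26 with the resistant background) and turned to -0.02 under median scaling. Timp2, an inhibitor of matrix metalloproteases, was at 0.14 (0.41 with the resistant background). These 3 genes had groups without overlap.

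The deposited tables differed on Tfpi and Tfpi2. In the table of signals the Tfpi2 probe read 111.5, 101.8 and 101.9 intensity units at 7 km and 116.5, 121.0 and 97.4 at 3 km. Its detection p-values lay between 0.459 and 0.612, so it was above background on 0 of the 6 arrays. The Tfpi probe read 450.9, 446.6 and 459.4 at 7 km and 496.5, 674.2 and 472.4 at 3 km. It was above background on all 6, and its normalised levels overlapped.

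In the authors' table of processed values, Tfpi2 stood at 282.3, 325.0 and 319.4 at 7 km and -55.9, -46.8 and -49.6 at 3 km. There Tfpi stood at -55.8, -62.3 and -51.2 at 7 km and 274.2, 391.1 and 328.7 at 3 km. Each gene's groups were far apart in this table, in opposite directions.

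The processed value that corresponds to each signal was read off by rank within each array. Over all probes the median gap between it and the deposited value was 0.598 to 0.671 units, and 1 in 100 probes differed by more than 111 to 124 units, depending on the array. At 3 km both Tfpi and Tfpi2 matched their own signals. At 7 km each probe's processed value matched the other probe's signal: Tfpi2 values of 282.3, 325.0 and 319.4 stood against 284.3, 325.9 and 320.3 implied by the Tfpi signals and -55.5, -62.0 and -50.9 implied by its own. The sea level arrays showed the same exchange. Of 21675 probes in both tables, 2 matched on all arrays of one altitude (a gap under 20 units) and were apart on all arrays of the other (over 100 units), and these were Tfpi and Tfpi2.

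One table therefore lists Tfpi2 far higher at 7 km than at 3 km, and the other lists it at background at both. Which assignment of the values to the 2 probes is the measured one cannot be told from these files. The detection p-values follow the table of signals.

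**Figure D4:**
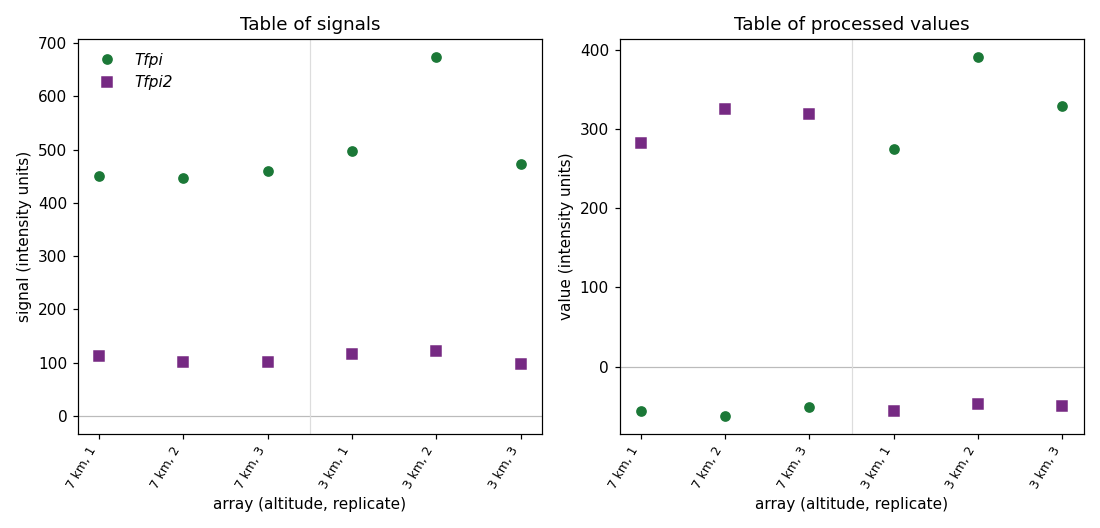
Signal (left, intensity units) and processed value (right, intensity units) of the Tfpi and Tfpi2 probes on each of the 6 arrays (x axis, 7 km left of 3 km). In the signals Tfpi lies above Tfpi2 on every array shown. In the processed values Tfpi2 lies above Tfpi on the 7 km arrays and below it on the 3 km arrays.

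Single genes were ranked by p, and the 10 named genes per direction with the smallest p and no overlap are given as values that did not pass. Among those higher at 7 km, Nell2, a secreted glycoprotein of neurons, had 11.94, 12.06 and 11.97 at 7 km and 11.44, 11.54 and 11.59 at 3 km (0.47 ± 0.0533, adjusted p = 0.424). Stard7, which carries phosphatidylcholine to mitochondria, had 11.59, 11.60 and 11.67 at 7 km and 11.32, 11.38 and 11.34 at 3 km (0.27 ± 0.0297). Gabbr2, a subunit of the GABA-B receptor, had 10.82, 10.71 and 10.59 at 7 km and 10.20, 10.20 and 10.28 at 3 km (0.48 ± 0.0627, and 0.28 with the resistant background). In these 3 genes each group spread over less than the gap between the group means, but under median scaling Nell2 was at 0.25, Stard7 at 0.01 and Gabbr2 at 0.04.

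The matricellular protein Ccn3 had 8.60, 8.39 and 8.42 at 7 km and 7.85, 8.03 and 7.97 at 3 km (0.52 ± 0.0751, and 0.93 with the resistant background). Stat6, which transmits interleukin-4 signals, was at 0.31 (0.65 with the resistant background), the elongation factor Eef1a1 at 0.13 and Proser1 at 0.31. A dimmer tested probe of Eef1a1 was at 0.55 ± 0.209, and its groups overlapped. Probes annotated to the chemokine receptor Ccr3 (0.53, and 0.35 with the resistant background) and to the cytochrome Cyp2d2 (0.19) belonged to the same set, and the annotation alone names them. Gabrb1, a GABA-A receptor subunit, was at 0.53 ± 0.214 (0.31 with the resistant background) without overlap and turned to -0.03 under median scaling. It and Gabbr2 were the 2 of 7 tested GABA receptor genes with groups above without overlap, against 5.58% of all named genes.

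Bcat1, the cytosolic transaminase of branched-chain amino acids, was above background on all 3 arrays at 7 km and on 0 of 3 at 3 km. Its levels were 7.65, 7.70 and 7.70 at 7 km and 7.57, 7.56 and 7.57 at 3 km, at least 1.06-fold higher at 7 km (limma adjusted p = 0.424), where the 3 km level is set no lower than the dimmest probe above background. It was tested only through its 7 km arrays, so its 3 km level is only a bound. With the resistant background its difference was 1.26 in place of 0.11, and it was the single probe past the threshold (limma adjusted p = 0.037). Both differences and that p rest on 3 km values not above background. In all, 5 probes were above background on every 7 km array and no 3 km array, and 24 the other way round, beside 5449 above background on all 6.

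Among genes lower at 7 km, Fis1, a receptor for mitochondrial fission, had 7.89, 7.95 and 7.97 at 7 km and 8.22, 8.18 and 8.16 at 3 km (-0.25 ± 0.0289, and -0.56 with the resistant background, adjusted p = 0.424). Ivns1abp had 10.39, 10.24 and 10.57 at 7 km and 10.91, 10.95 and 10.93 at 3 km (-0.53 ± 0.0838, and -0.32 with the resistant background). Thtpa, which hydrolyses thiamine triphosphate, had 8.97, 9.15 and 8.97 at 7 km and 9.55, 9.38 and 9.47 at 3 km (-0.44 ± 0.0695, and -0.29 with the resistant background). In all 3 the 7 km arrays lay wholly below. Under median scaling, which moved probes lower in general, Fis1 was at -0.39 and Thtpa at -0.91.

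The rest of these 10 had smaller differences. The deubiquitinase Usp2 was at -0.18 (-0.54 with the resistant background). The kinase Mapkapk5 was at -0.10 (-0.38 with the resistant background). The acylphosphatase Acyp1 was at -0.14 (-0.35 with the resistant background). Luzp1 was at -0.24 (-0.43 with the resistant background), Paqr4 at -0.16 (-0.46 with the resistant background), Ica1 at -0.15 (-0.24 with the resistant background) and the ribosomal protein Rps27 at -0.22 (-0.12 with the resistant background).

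**Figure D5:**
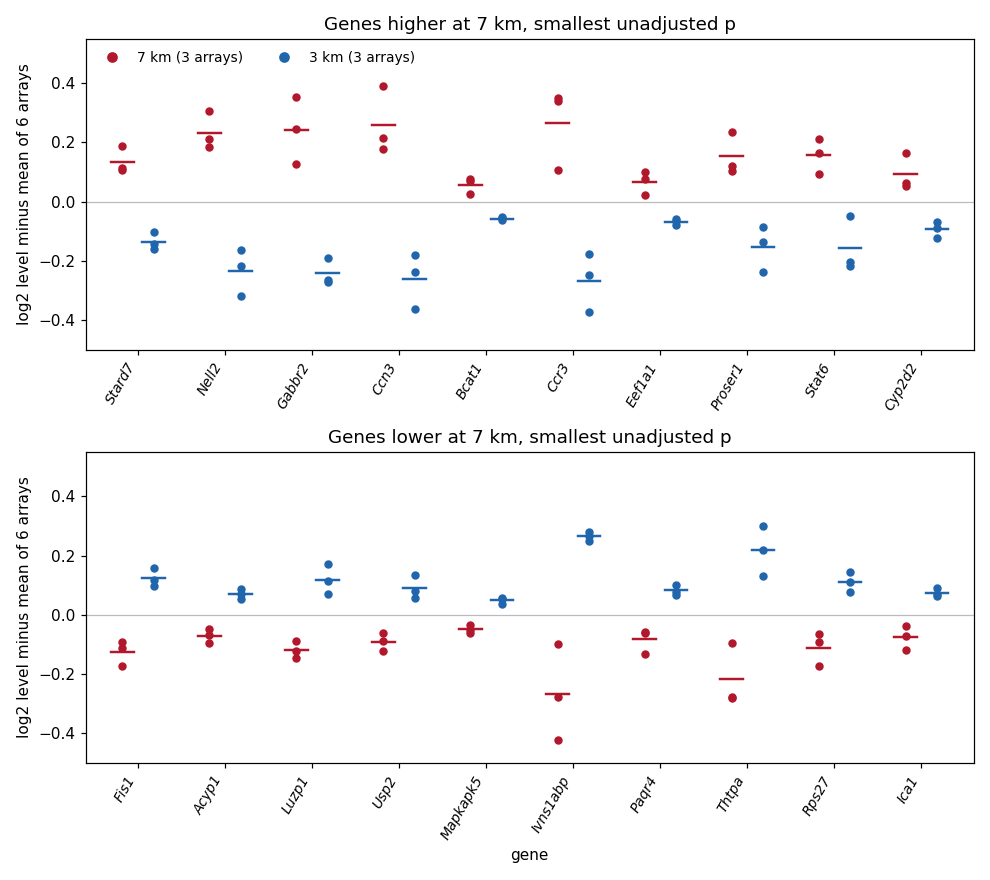
The 10 named genes per direction with the smallest unadjusted p and groups that do not overlap (x axis; upper panel higher at 7 km, lower panel lower), on each array, as log2 level minus the gene's mean over the 6 arrays (y axis). Points are arrays, 7 km left of 3 km, and lines are means of 3. The differences range from -0.53 for Ivns1abp to 0.53 for Ccr3, and none passed the test.

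Further genes of secretion, metal handling and lipids were read the same way. Scg3, a sorting protein of dense-core vesicles, had 9.57, 9.60 and 9.66 at 7 km and 9.71, 9.85 and 9.77 at 3 km, without overlap (-0.17 ± 0.0451, and -0.10 with the resistant background). Mt1, which buffers metals such as zinc, had 9.52, 9.92 and 9.90 at 7 km and 10.35, 10.18 and 9.59 at 3 km, and its groups overlapped. Tf, the iron carrier transferrin, which oligodendrocytes make in the brain, had 11.70, 12.30 and 12.31 at 7 km and 12.62, 12.81 and 12.62 at 3 km, without overlap (-0.58 ± 0.185). Of 10 cholesterol genes, 8 lay lower and 4 had groups below without overlap, against 8.14% of all named genes (median -0.03, and -0.19 with the resistant background). Among the 4 were the squalene synthase Fdft1 (-0.08, and -0.37 with the resistant background) and the regulator Srebf1 (-0.04, and -0.23 with the resistant background). All 4 were dim, with mean levels over the 6 arrays from 7.64 (Stard4) to 7.79 (Fdft1), near the lowest level of 7.46. The list median kept its sign in 17 of 18 alternatives, and its highest value was 0.04.

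At the synapse, 15 of 18 tested vesicle release genes and 13 of 14 glutamate receptor and scaffold genes lay higher at 7 km. Among all named genes 48% lay higher and 5.58% had groups above without overlap, and 0 members of either list did the latter. The medians were 0.06 and 0.03, and under median scaling -0.06 and -0.06. Without 7 km replicate 1 the vesicle release median was 0.04, and without 7 km replicate 2 the glutamate receptor median was 0.0149. Snap25, of the fusion complex, lay lower, with 12.26, 12.31 and 12.14 at 7 km and 12.38, 12.52 and 12.59 at 3 km (-0.26 ± 0.0731). Atp2b1, a calcium pump of the plasma membrane, had 12.06, 11.85 and 11.97 at 7 km and 11.78, 11.64 and 11.68 at 3 km (0.26 ± 0.0662). The phosphatase Dusp1, an early response gene, had 9.41, 9.47 and 9.24 at 7 km and 9.65, 9.63 and 9.71 at 3 km (-0.29 ± 0.0665, and -0.18 with the resistant background), while the early response transcription factor Jun was at 0.05 (0.49 with the resistant background). Jun was above background on 3 arrays at 7 km and 1 at 3 km. Pvalb, a calcium buffer of fast-spiking interneurons, was at -0.08 (-0.56 with the resistant background). These 5 genes had groups that did not overlap.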

How the data were processed

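Total RNA of rat cortex was labelled with biotin and read on 1-colour Illumina bead arrays, per the labels' protocols. The authors deposited a signal intensity and a detection p-value for each probe, and separately a table of processed intensity values with no stated background subtraction or scaling. The 6 arrays at 7 km and 3 km were normalised alone with neqc of limma 3.58.1 in R 4.3.3 (offset 16, quantile), with negative controls inferred from the detection p-values. Probes with detection p under 0.05 on 3 or more of the 6 arrays were tested with lmFit and eBayes and adjusted over all 6252, after a check on simulated data. Of 22523 probes, 13353 carried 1 gene symbol and 9170 none. A gene was represented by its brightest tested probe. Lists were described by counts and medians, with no set test.

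Named genes were the 10 per direction with the smallest p among those without overlap, and Tfpi2, Tfpi, Hif1a, Epas1, Vegfa, Slc2a1, Hmox1, Stc1, Scg3 and Mt1. Others were drawn from the 4 members of each list that had the lowest p. Not every such member is named, and many left out had groups that overlapped, so the named genes do not represent their lists. Genes from outside these sets whose levels or differences are given are marked where they occur. The groups, the 51 lists and the named genes were chosen with earlier results of these data known. The 18 alternatives changed the background, scaling, table, filter, offset, variance model, array weights, arrays fitted, pairing or left out 1 array. The number of arrays limits the precision.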

Additional observations from a re-analysis of the deposited data

Results flagged for a closer look

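Tfpi2 was above background on 0 of the 6 arrays in the table of signals, yet the authors' table of processed values, which the comparison does not use, lists it at 282.3 or more on every 7 km array and at -46.8 or less on every 3 km array. The same table lists Tfpi at -51.2 or less on every 7 km array and at 274.2 or more on every 3 km array, and the 7 km values of each probe matched the signals of the other. Which assignment is the measured one cannot be told from these files.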

How the results depend on the processing

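Among 18 alternatives, 15 gave 0 probes past the threshold, as the reported fit did, and 3 did not. Median scaling gave 2, both lower and unnamed. The authors' table of processed values gave 4, of which Bcat1 was higher and Cyp11b1, Carhsp1 and Tfpi were lower, and the call of Tfpi (-4.36) rests on the values that the tables exchange between Tfpi and Tfpi2. The resistant background, chosen after seeing the data, gave 1, Bcat1. Leaving out 1 array at a time gave 0 to 0 probes, with smallest adjusted p-values of 0.0734 to 0.848. With a replicate block the count was 0. Same-numbered arrays deviated together with correlations of 0.037, 0.041 and 0.161. These cannot exclude a shared batch or pairing, since deviations from a mean of 3 arrays are bound to sum to 0. Probes with an unadjusted p under 0.05 numbered 471 as reported, 1509 under median scaling, 1306 with no filter, 158 with detection p under 0.01, 180 with all 9 arrays and 300 without 3 km replicate 2. Of 1406 single-gene values under alternatives for 80 genes, 8 changed sign. Median scaling gave -0.0051 for P4ha1, -0.015 for Plat, -0.0242 for Ndrg1 and -0.0253 for Gabrb1. Leaving out 1 array gave -0.0189 to 0.015 for Hif1a, -0.046 to 0.0041 for Tfpi and -0.2406 to 0.0024 for Nrgn. The cause of these moves was not tested. Dim probes limit what can be measured, since 15627 probes were above background on none of the 6 arrays.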
